A study of Mus musculus with 6 samples.

Results

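The 10 genes described here carry carbon from amino acids and pyruvate to free glucose in the liver, and all 10 were found among the 53715 genes of the deposited count table by Ensembl identifier. They comprise 4 enzymes that bring amino acid carbon into the pathway (Sds, Gpt, Gpt2 and Tat), 2 that convert pyruvate to phosphoenolpyruvate (Pcx and Pck1), 3 proteins of the shared final steps (Fbp1, G6pc and Slc37a4) and the coactivator gene Ppargc1a. All 10 had enough counts to be among the 13022 genes tested. Livers came from F1 males of the outbred ICR mouse stock at 8 weeks of age, and polyadenylated RNA was sequenced as 3 libraries for each of the groups called control F1 and FR F1. The fathers of the FR F1 group are labelled with famine as their stress and those of the control F1 group as control, but overdiet is the word in the series title, and FR is left unexplained. Feeding state and time of collection are not given in the labels, nor is whether each library is a separate animal, and every p-value here therefore reflects the spread among these libraries, which may be technical.

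Gluconeogenesis makes glucose from lactate, glycerol and amino acids, and in liver it sustains blood glucose between meals. Alanine, serine and tyrosine lose their amino groups through the enzymes studied here, and some carbon from each can join the pathway at pyruvate or in the citric acid cycle. Glucagon and glucocorticoids raise transcription of several of these genes and insulin lowers it, and periportal hepatocytes, those nearest the portal vein, are the best known site of the pathway.

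In FR F1 livers 9 of the 10 genes had lower fitted values than in control F1 livers, as had 50% of all tested genes and 58.4% of those with at least 100 CPM on average, and G6pc, which encodes the catalytic subunit of glucose-6-phosphatase, was the exception. The lower values were spread along the pathway, with log2 fold changes from -1.04 for the serine dehydratase gene Sds to -0.19 for the fructose bisphosphatase gene Fbp1. None passed the threshold with edgeR, a quasi-likelihood F test with p adjusted by Benjamini-Hochberg over all tested genes and a limit of 0.05 (n = 3 per group), where 0.837% of all tested genes passed. At an unadjusted p under 0.05 there were 6 members, all lower, against 17.9% of tested genes in either direction and 8.88% lower. DESeq2 called 3 members lower, Sds, Gpt2 and Pck1, against 3.51% of genes in either direction and 1.57% lower, and limma-voom called 0 against 0.791%. With sample weights limma-voom called 3 members against 9.21% of genes, edgeR without a filter on low counts called 4 against 4.04%, and edgeR at an adjusted p under 0.1 called 3 against 2.47%. The median log2 fold change of the 10 was -0.44, and that of all tested genes was 0.00040.

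In 7 of the 10 genes every FR F1 library lay below every control F1 library in CPM, the count relative to library size as adjusted by TMM factors. Of all tested genes 13.2% were arranged in that way, as were 19.9% of the 3030 genes averaging at least 100 CPM. The count was 6 with RLE factors, where Tat overlapped, 7 with upper-quartile factors and 5 with library totals alone, where Tat and Pcx overlapped. Together the 10 genes held 0.482%, 0.438% and 0.456% of all counts in control replicates 1, 2 and 3. In FR replicates 1, 2 and 3 they held 0.326%, 0.317% and 0.381%, so the groups did not overlap in that share.

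**Figure D1:**
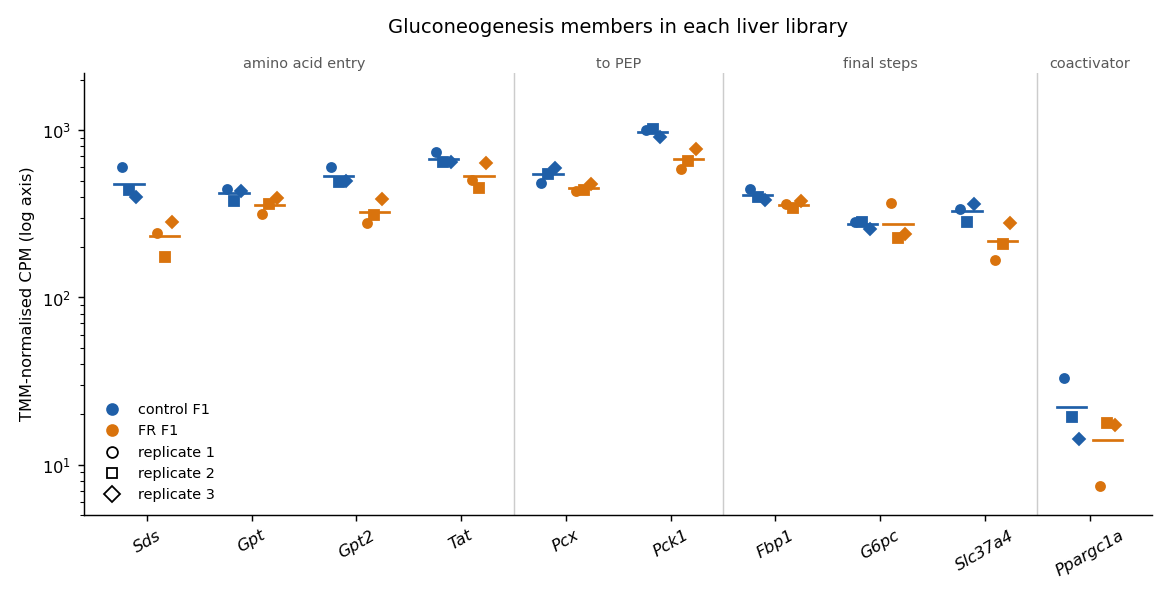
TMM-normalised CPM of the 10 genes in each library on a log axis, ordered by role, blue for control F1, orange for FR F1, a symbol for each replicate and bars for the mean of 3 libraries. The Sds means were 480 and 233 CPM, while the G6pc means were 275 and 276 CPM.

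Sds encodes serine dehydratase, which turns serine into pyruvate and ammonia, and lies on chromosome 5 from 120476526 to 120483932 (ENSMUSG00000029597.14, mm10). Its level was 604, 437 and 399 CPM across control replicates 1 to 3, against 242, 175 and 283 CPM across FR replicates 1 to 3. The highest FR F1 library was thus below the lowest control F1 library. The means were 480 ± 109 and 233 ± 54.3 CPM (SD, n = 3 per group), and the fitted FR F1 level was 48.6% of control. The log2 fold change was -1.04 ± 0.21 (SE, 95% interval -1.53 to -0.55, edgeR adjusted p = 0.0780). Sds passed without control replicate 1 (edgeR adjusted p = 0.0499) and without control replicate 3 (edgeR adjusted p = 0.0422), fits in which 4.83% and 1.19% of genes passed. Its 18 alternatives gave adjusted p-values between 2.6e-10 and 0.273.

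The Sds counts carry a further limit, in that exons on the other strand overlap 360 of its 1694 exonic base pairs in Plbd2 and 141 in the antisense model Gm15690. No source used here gives the strand setting of the counting, so reads of Sds and of these partners cannot be told apart in the shared stretches. Plbd2 had a log2 fold change of -0.56 ± 0.15 (SE, edgeR adjusted p = 0.137) and Gm15690 one of -1.18 ± 0.26 (edgeR adjusted p = 0.0882).

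Gpt and Gpt2 encode the cytosolic and the mitochondrial alanine aminotransferase, which remove the amino group of alanine and leave pyruvate. Gpt2 (ENSMUSG00000031700.11, chromosome 8, 85492576 to 85527560) was measured at 604, 489 and 498 CPM in the control F1 libraries and at 278, 312 and 387 CPM in the FR F1 libraries, in replicate order. No FR F1 library reached the lowest control F1 value. Gpt2 thus had a log2 fold change of -0.70 ± 0.15 (SE, 95% interval -1.04 to -0.36, edgeR adjusted p = 0.0804). Gpt (ENSMUSG00000022546.5, chromosome 15, 76695716 to 76699686) gave 444, 380 and 434 CPM in control F1 and 317, 360 and 395 CPM in FR F1 livers. Here the groups overlapped, since FR replicate 3 exceeded control replicate 2. The log2 fold change of Gpt was -0.23 ± 0.12 (SE, 95% interval -0.50 to 0.04, edgeR adjusted p = 0.336).

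Scaled by the length of the longest annotated transcript, the mitochondrial form took 51.2%, 49.8% and 46.9% of the alanine aminotransferase counts in control replicates 1, 2 and 3. In FR replicates 1, 2 and 3 it took 40.3%, 40.1% and 43.0%. The groups did not overlap, with means of 49.3% ± 2.15 in control F1 and 41.1% ± 1.64 in FR F1 livers (SD, n = 3 per group). This pair was singled out after its values were seen, and with 3 libraries against 3 a two-sided exact permutation test cannot go below 0.1.

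Tat encodes tyrosine aminotransferase, the first enzyme of tyrosine breakdown and a long-studied glucocorticoid target of liver (ENSMUSG00000001670.13, chromosome 8, 109990437 to 109999803). Control replicates 1, 2 and 3 gave 736, 643 and 641 CPM, and FR replicates 1, 2 and 3 gave 503, 454 and 636 CPM. FR replicate 3 lay just under the lowest control F1 library, and the other FR F1 libraries were well below. For Tat the fitted log2 difference was -0.34 ± 0.14 (SE, 95% interval -0.66 to -0.03, edgeR adjusted p = 0.249).

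Pcx encodes pyruvate carboxylase, which makes oxaloacetate from pyruvate in the mitochondrion (ENSMUSG00000024892.16, chromosome 19, 4510472 to 4621752). It had 487, 551 and 595 CPM in control F1 and 430, 441 and 479 CPM in FR F1 livers, in replicate order. The highest FR F1 and the lowest control F1 library were close but did not overlap. Its log2 fold change was -0.27 ± 0.11 (SE, 95% interval -0.52 to -0.03, edgeR adjusted p = 0.236).

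Pck1 encodes the cytosolic phosphoenolpyruvate carboxykinase, which converts oxaloacetate to phosphoenolpyruvate and is controlled mainly through transcription (ENSMUSG00000027513.11, chromosome 2, 173153048 to 173159273). It was the most counted of the 10 genes, with 1001, 1016 and 913 CPM in control replicates 1, 2 and 3. FR replicates 1, 2 and 3 had 584, 657 and 769 CPM, all below every control F1 library. The means were 977 ± 55.4 and 670 ± 93.0 CPM (SD, n = 3 per group), and the fitted FR F1 level was 68.6% of control. On the log2 scale the fold change was -0.54 ± 0.11 (SE, 95% interval -0.81 to -0.28, edgeR adjusted p = 0.0804).

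Fbp1 encodes fructose-1,6-bisphosphatase 1, the liver enzyme that opposes phosphofructokinase (ENSMUSG00000069805.10, chromosome 13, 62864753 to 62888282). Its values were 445, 398 and 385 CPM in control F1 and 360, 341 and 378 CPM in FR F1 livers, in replicate order. The groups were separated by a few CPM, and the log2 fold change was -0.19 ± 0.10 (SE, 95% interval -0.42 to 0.05, edgeR adjusted p = 0.361).

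G6pc (ENSMUSG00000078650.2, chromosome 11, 101367561 to 101377903) releases free glucose in the endoplasmic reticulum, and Slc37a4 (ENSMUSG00000032114.9, chromosome 9, 44396852 to 44402968) encodes the transporter that brings glucose 6-phosphate there. In replicate order G6pc was measured at 283, 284 and 258 CPM in control F1 livers and at 365, 226 and 238 CPM in FR F1 livers. FR replicate 1 was thus the highest of the 6 libraries, and the other FR F1 libraries were the lowest. The log2 fold change was 0.01 ± 0.19 (SE, 95% interval -0.42 to 0.43, edgeR adjusted p = 0.988), and leaving out FR replicate 1 gave -0.24 (edgeR adjusted p = 0.524, where 19 alternatives spanned 0.524 to 0.999).

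Slc37a4 had 337, 282 and 363 CPM in control F1 and 168, 210 and 278 CPM in FR F1 livers, in replicate order. All FR F1 libraries were below all control F1 libraries, and FR replicate 1, the highest for G6pc, was the lowest for Slc37a4. Its fitted log2 difference was -0.58 ± 0.19 (SE, 95% interval -1.02 to -0.15, edgeR adjusted p = 0.186). In replicate order, the ratio of G6pc to Slc37a4 CPM was 0.840, 1.01 and 0.711 in control F1 livers. It was 2.17, 1.08 and 0.858 in FR F1 livers, so the groups overlapped.

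Ppargc1a encodes PGC-1α, a coactivator that drives Pck1 and G6pc transcription in fasted mouse liver (ENSMUSG00000029167.13, chromosome 5, 51454250 to 51567726). It was the least counted of the 10, with raw counts of 76, 43 and 37 in control F1 and of 20, 48 and 42 in FR F1 livers. Only control replicate 1 and FR replicate 1 stood away from the rest. The log2 fold change was -0.65 ± 0.42 (SE, 95% interval -1.62 to 0.32, edgeR adjusted p = 0.437), and it ranged from -0.89 without control replicate 3 to -0.25 without control replicate 1.

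The promoter windows of Pck1, G6pc and Gpt2 are shown because Pck1 and Gpt2 were both lower in every FR F1 library while G6pc was not. Each window runs from 250 bases before to 50 after the RefSeq start (GRCm38.p6, plus strand, 5′ to 3′), at chr2:173152823-173153122, chr11:101367466-101367765 and chr8:85492326-85492625. Capitals mark matches to the motifs searched on both strands.
Pck1: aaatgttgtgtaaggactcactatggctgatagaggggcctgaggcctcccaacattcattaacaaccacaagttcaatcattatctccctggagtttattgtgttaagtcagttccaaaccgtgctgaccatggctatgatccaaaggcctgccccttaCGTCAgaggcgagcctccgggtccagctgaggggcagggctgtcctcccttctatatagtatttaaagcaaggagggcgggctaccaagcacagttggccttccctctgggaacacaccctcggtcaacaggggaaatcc
G6pc: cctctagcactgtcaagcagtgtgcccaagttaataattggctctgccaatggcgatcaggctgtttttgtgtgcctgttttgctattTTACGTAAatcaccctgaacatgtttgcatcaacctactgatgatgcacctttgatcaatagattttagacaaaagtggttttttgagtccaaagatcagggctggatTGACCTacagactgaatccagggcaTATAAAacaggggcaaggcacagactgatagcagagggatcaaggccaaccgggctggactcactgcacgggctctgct
Gpt2: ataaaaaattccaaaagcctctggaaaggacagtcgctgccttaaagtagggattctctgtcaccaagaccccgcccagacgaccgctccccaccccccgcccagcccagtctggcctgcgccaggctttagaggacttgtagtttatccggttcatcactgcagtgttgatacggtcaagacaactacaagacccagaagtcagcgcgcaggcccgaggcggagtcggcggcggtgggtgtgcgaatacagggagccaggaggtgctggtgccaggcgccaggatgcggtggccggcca
The motifs were the cAMP response element TGACGTCA and its core TGACG, the E-box CACGTG, the FOXO motif GTAAACA, the core AGGTCA of ROR elements, the core TGTTCT of glucocorticoid receptor elements, the D-box TTANNTAA and the TATA box TATAAA, and the full element contains its core.

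The Pck1 window held the core TGACG on the minus strand, 90 bases before the start, a place that corresponds to a cAMP response element studied in the rat gene. That core was present in 20.8% of 32851 promoter windows of the same length. G6pc held a D-box beginning 162 bases before the start, AGGTCA on the minus strand 54 bases before it and a TATA box 29 bases before it, motifs present in 6.0%, 16.3% and 13.6% of windows. The Gpt2 window held none of these letters. Matches are descriptions of the sequence, and no binding was measured. Only exact letters were searched, so a window without a match to TGACG, such as that of G6pc, may still hold a variant cAMP response element. Windows were found in the RefSeq table for 8 of the 10 genes, and Sds and Gpt were not among them.

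In CPM per kilobase of transcript, from library totals, the control F1 order of levels was Sds, Pck1, Tat, Fbp1, Gpt, Gpt2, Slc37a4, Pcx, G6pc and Ppargc1a. Sds was at 366 ± 76.9 and Pck1 at 353 ± 11.7 (SD, n = 3), which overlapped, and Pck1 was above Tat at 279 ± 19.2 in every library. Tat and Fbp1, at 273 ± 16.8, overlapped. A step without overlap followed to Gpt at 147 ± 13.7, after which Gpt, Gpt2, Slc37a4, Pcx and G6pc each overlapped the next, down to 112 ± 3.27 for G6pc. Ppargc1a stood far below, at 3.36 ± 1.41. In FR F1 livers Sds, at 180 ± 41.4 on that scale, lay under the means of Pck1 (244 ± 32.1), Fbp1 (242 ± 11.7) and Tat (222 ± 38.3), and Gpt2, at 88.9 ± 14.6, lay under Gpt (127 ± 13.0) in every library.

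These levels are limited by a property of the table, in which counts rarely exceed 1 per base pair of transcript. Sds reached 1.08 counts per base pair in control replicate 1, and the highest values were 0.873 for Pck1, 0.715 for Tat and 0.694 for Fbp1, while the other 6 genes stayed at or below 0.404. Large folds in the first 4 could therefore be understated. With counts expanded toward an assumed upper limit slightly above 1 count per base pair, the log2 fold change of Sds was -1.61 (edgeR adjusted p = 0.0805) and that of Pck1 was -0.79 (edgeR adjusted p = 0.0489), in a fit where 0.858% of genes passed. The adjusted p of Pck1 ranged from 0.00061 to 0.289 over 18 alternatives. The labels name no processing step that would set such a limit.

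**Figure D2:**
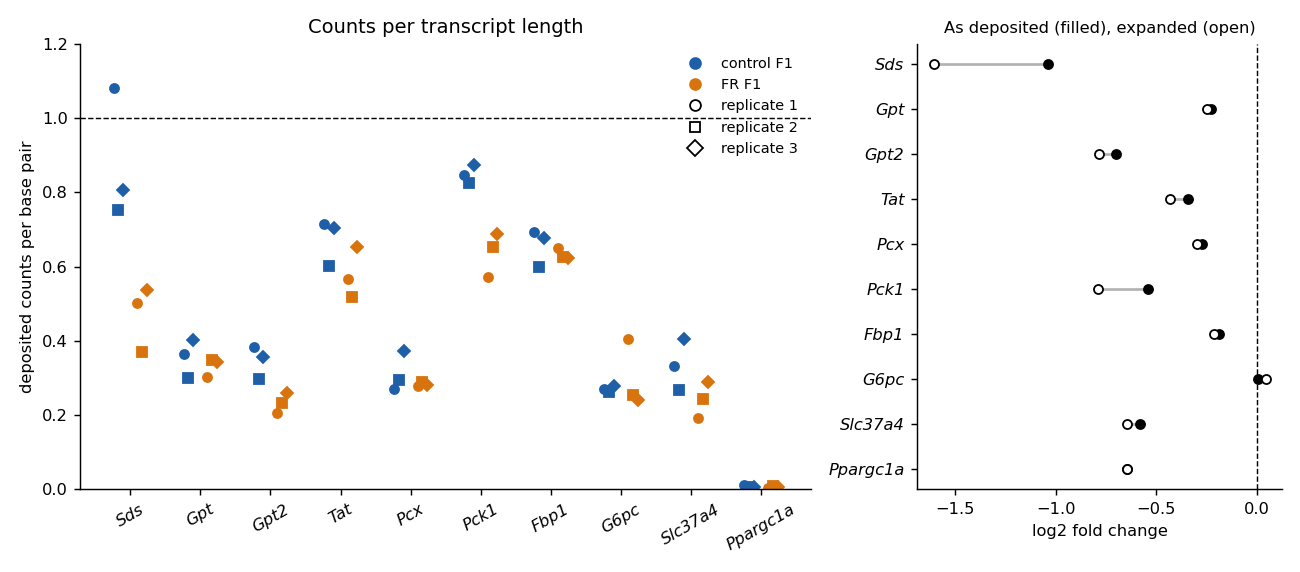
Left, deposited counts per base pair of the longest transcript for each gene and library, blue for control F1 and orange for FR F1, and a dashed line at 1 count per base pair. Right, log2 fold change (FR F1 minus control F1) from the counts as deposited (filled) and expanded toward a ceiling (open), where Sds went from -1.04 to -1.61 and Pck1 from -0.54 to -0.79.

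To set amino acid entry against the final steps, the mean log2 CPM of Sds, Gpt, Gpt2 and Tat was compared in each library with that of Fbp1, G6pc and Slc37a4. The entry mean exceeded the final-step mean by 0.75, 0.59 and 0.55 in control replicates 1, 2 and 3. In FR replicates 1, 2 and 3 the excess was 0.20, 0.28 and 0.48. With Sds included the groups did not overlap, although FR replicate 3 came near control replicate 3. The group means of that excess were 0.63 ± 0.11 and 0.32 ± 0.14 (SD, n = 3 per group), a difference of -0.31 that was not tested because the genes were chosen with results known.

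Both sets had lower means in FR F1 livers, with log2 differences of -0.58 for entry and -0.27 for the final steps. The difference between them was -0.16 with Sds left out of the entry mean, an alternative chosen after seeing the data. In that alternative the groups overlapped, with FR replicate 3 above control replicates 2 and 3. Within the final steps the spread between genes was wider than the difference between the sets, from -0.58 for Slc37a4 to 0.01 for G6pc. The G6pc value reversed in sign with limma-voom, without a filter on low counts, with a replicate block and without control replicate 3 or FR replicate 1.

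**Figure D3:**
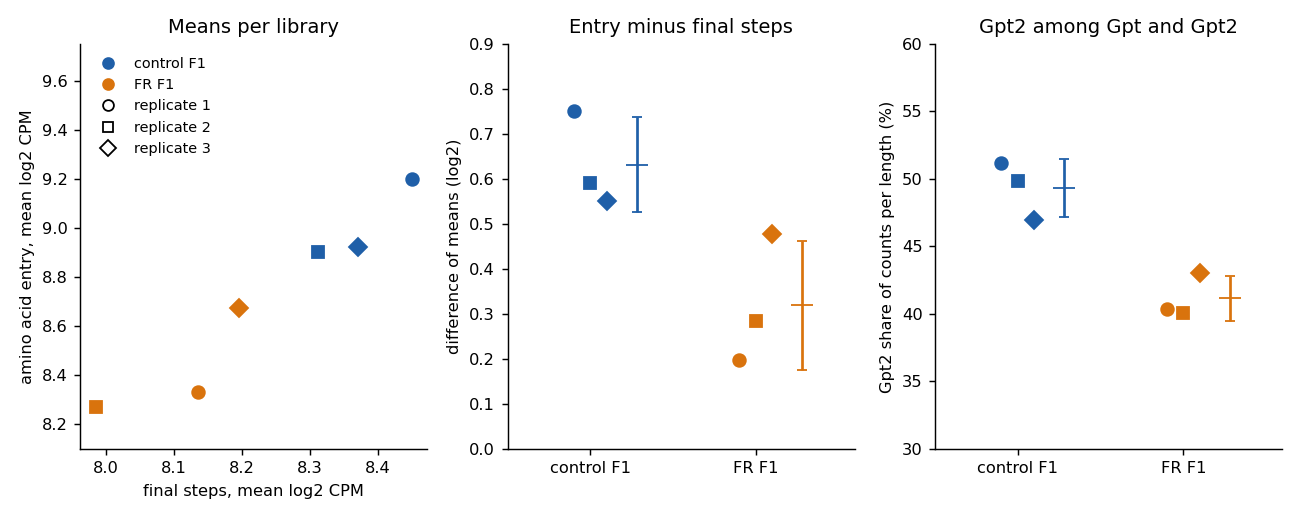
Left, mean log2 CPM of Sds, Gpt, Gpt2 and Tat against that of Fbp1, G6pc and Slc37a4 in each library. Middle and right, the difference of those means and the Gpt2 share of Gpt and Gpt2 counts per length, with the mean and SD of 3 libraries beside the points, at 0.63 and 0.32 on the log2 scale and 49.3% and 41.1% for control F1 and FR F1.

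Across the 10 genes, control replicate 1 held the highest value for 6 and FR replicate 1 the lowest for 6, and FR replicate 2 held the lowest for the other 4. FR replicate 3 held neither extreme for any gene, and it was the highest FR F1 library for 8 genes, the exceptions being G6pc and Ppargc1a. Leaving out single libraries, the count of members past the edgeR threshold was 1 without control replicate 1 and 1 without control replicate 3, Sds in each case, and 0 in the other 4 fits.

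Of 7 tested enzymes of the middle of the pathway, which glycolysis shares, 0 passed with edgeR, 0 had an unadjusted p under 0.05, DESeq2 and limma-voom called 0, and the median log2 fold change was -0.12. Gpi1, which encodes glucose phosphate isomerase, had -0.21 ± 0.14 (SE, edgeR adjusted p = 0.447), and the enolase gene Eno1 had -0.22 ± 0.15 (edgeR adjusted p = 0.452).

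The 15 tested parallel forms and genes of 3-carbon entry had a median of -0.04 on the log2 scale, with 0 called by edgeR, DESeq2 or limma-voom and 4 at an unadjusted p under 0.05, 2 in each direction. Of all tested genes 17.9% had such a p with edgeR. Slc25a10, the mitochondrial dicarboxylate carrier gene, was measured at 304, 301 and 332 CPM in control F1 and 154, 233 and 236 CPM in FR F1 livers. Its groups did not overlap, and its log2 fold change was -0.59 ± 0.17 (SE, edgeR adjusted p = 0.153). Ldhb, the heart-type lactate dehydrogenase gene, was scarce, at 3.04 to 7.29 CPM in control F1 and 8.11 to 14 CPM in FR F1 livers, with a log2 fold change of 1.18 ± 0.41 (SE, edgeR adjusted p = 0.201).

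Of 24 tested genes of other amino acid breakdown, 18 had negative log2 fold changes, with a median of -0.09, against 50% of all tested genes and 58.4% of those averaging at least 100 CPM. None passed with edgeR, DESeq2 or limma-voom, while 6 were lower at an unadjusted p under 0.05, against 8.88% of all tested genes. Bcat2, the mitochondrial branched-chain aminotransferase gene, had 274, 271 and 283 CPM in control F1 and 183, 203 and 222 CPM in FR F1 livers. The control F1 libraries were close together and all FR F1 libraries lay below them, with a log2 fold change of -0.45 ± 0.11 (SE, edgeR adjusted p = 0.119). Uroc1, the urocanase gene of histidine breakdown, had -0.31 ± 0.10 (SE, edgeR adjusted p = 0.180).

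Amino acid carriers had a median of -0.32 over 9 genes, with 0 called by edgeR or limma-voom, 2 called lower by DESeq2 and 4 at an unadjusted p under 0.05, all lower. Of all tested genes DESeq2 called 1.57% lower, and 8.88% were lower at that unadjusted p. Slc43a1, a carrier gene for large neutral amino acids, was measured at 86.3, 49.6 and 66.0 CPM in control F1 and 27.3, 33.2 and 31.2 CPM in FR F1 livers. The FR F1 libraries were tightly grouped below the control F1 libraries, and the log2 fold change was -1.14 ± 0.23 (SE, edgeR adjusted p = 0.0765, DESeq2 adjusted p = 0.00427). Slc7a2, a carrier gene for arginine and lysine, had -0.88 ± 0.22 (SE, edgeR adjusted p = 0.124, DESeq2 adjusted p = 0.0266).

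Of 8 genes of opposing glycolytic steps and pyruvate use, 0 passed with edgeR or limma-voom, DESeq2 called 1 higher and 1 lower, and 3 had an unadjusted p under 0.05, 1 higher and 2 lower. For all tested genes the shares in either direction were 3.51% with DESeq2 and 17.9% at that unadjusted p. The median log2 fold change was -0.24. Pdk4 encodes a kinase that inactivates pyruvate dehydrogenase and so spares pyruvate, in contrast to the name of the list. It had 1.30, 7.21 and 0.767 CPM in control F1 and 35.1, 25.4 and 14 CPM in FR F1 livers, with no overlap. Its log2 fold change was 3.03 ± 0.69 (SE, edgeR adjusted p = 0.0955, DESeq2 adjusted p = 0.00151). Pfkfb3, an enzyme gene of fructose 2,6-bisphosphate synthesis, had -1.54 ± 0.46 (SE, edgeR adjusted p = 0.161, DESeq2 adjusted p = 0.0348).

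Regulators of the pathway, 20 tested, had a median of -0.01 with 10 of each sign. None passed with edgeR or limma-voom, DESeq2 called 2 higher and 1 lower (3.51% of all tested genes in either direction), and 7 had an unadjusted p under 0.05, 3 higher and 4 lower (17.9% of all tested genes). Klf15, a transcription factor gene known in mouse liver for driving enzymes of amino acid breakdown, had 339, 297 and 311 CPM in control F1 and 157, 176 and 237 CPM in FR F1 livers. All FR F1 libraries were lower, with a log2 fold change of -0.73 ± 0.16 (SE, edgeR adjusted p = 0.0910, DESeq2 adjusted p = 0.0157). Nr0b2 encodes the corepressor SHP, and its values were 64.6, 67.6 and 104 CPM in control F1 and 116, 154 and 157 CPM in FR F1 livers. The groups did not overlap, with a log2 fold change of 0.85 ± 0.22 (SE, edgeR adjusted p = 0.128, DESeq2 adjusted p = 0.0241). Cebpb, also called higher by DESeq2 (adjusted p = 0.0358), had 1.29 ± 0.36 (SE, edgeR adjusted p = 0.141). The rest at an unadjusted p under 0.05 were Creb1 at 0.93 ± 0.30, Sik1 at -1.04 ± 0.30, Hnf4a at -0.35 ± 0.10 and Trib3 at -0.95 ± 0.34. Their edgeR adjusted p-values were 0.181, 0.153, 0.153 and 0.213 in that order.

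**Figure D4:**
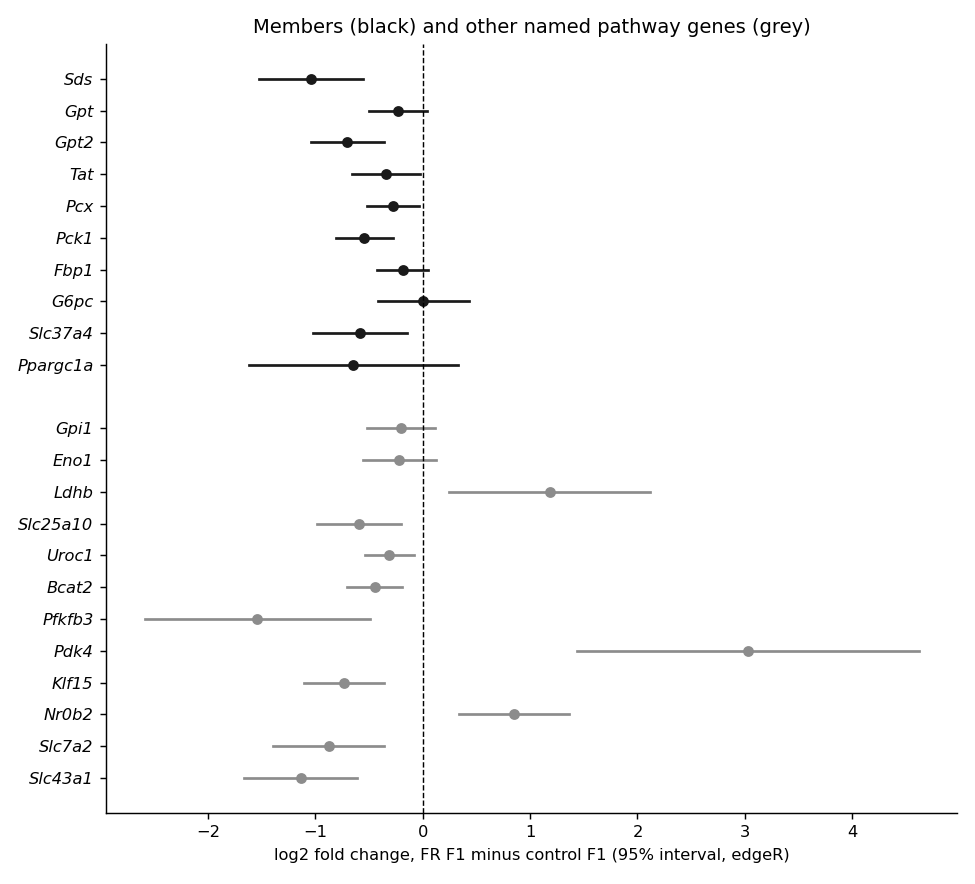
Log2 fold changes (FR F1 minus control F1) with 95% intervals from edgeR for the 10 genes in black and 12 other named pathway genes in grey. Intervals of Sds, Gpt2, Tat, Pcx, Pck1 and Slc37a4 lay below 0, that of G6pc ran from -0.42 to 0.43, and Pdk4 was highest at 3.03; none of these passed the adjusted threshold with edgeR.

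Profiles over the 6 libraries were compared by the root mean square difference of centred log2 CPM among 9795 protein-coding genes of mean CPM at least 10. Among the nearest to Sds were Rasgef1b (0.116) and Nnmt (0.182). Nnmt, the nicotinamide N-methyltransferase gene, passed with edgeR, at -1.26 ± 0.20 on the log2 scale (SE, edgeR adjusted p = 0.0385). Lin52 (0.0344), Timm17a (0.0494) and Nop2 (0.0571) were nearest to Pck1, and Crlf3 (0.0649), Aasdh (0.0690) and Gapvd1 (0.0771) to G6pc. These distances describe 6 libraries and carry no test.

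Sums of several cell type marker lists differed between the groups in these bulk samples, in which fewer cells of a type and less RNA per cell cannot be told apart. The 7 hepatocyte markers measured summed to 4284 to 5398 CPM (of library totals) in control F1 and 4638 to 4876 in FR F1 libraries. Of these, 5 had negative log2 fold changes (median of the 7, -0.18), and Apob (0.19) and Ttr (0.05) had positive ones. The 8 periportal markers summed to 3102 to 3797 in control F1 and 2566 to 2836 in FR F1 libraries without overlap, and all 8 had negative log2 fold changes, Aldh1b1 and Sult5a1 (2 of 8) past the edgeR threshold. The 8 pericentral markers overlapped, at 2239 to 2509 and 2280 to 2353, with 5 negative and 3 positive log2 fold changes. The limit on counts per base pair described above could also hold down changes in abundant markers, such as Alb with 1865 to 2315 counts. That was not tested for the marker sums. All 10 endothelial markers had positive log2 fold changes, with sums of 343 to 563 in control F1 and 686 to 802 in FR F1 libraries, as had all 10 stellate cell markers, with 283 to 485 and 667 to 747, Pdgfra (1 of 10) past the edgeR threshold. Sums of B and plasma cell markers (11.8 to 33.2 and 49.1 to 98.1) and erythroid markers (157 to 372 and 401 to 457) did not overlap between control F1 and FR F1 libraries. Those of Kupffer cell and cholangiocyte markers did, although all 8 Kupffer cell markers had positive log2 fold changes (median 0.44). Kidney markers, from the other main gluconeogenic organ, summed to at most 3.5 CPM. The 5 pancreatic markers summed to 80.7 to 109 CPM in control F1 and 103 to 118 in FR F1 libraries, nearly all from Cela1 with 191 to 322 counts, while Prss2, Ins2 and Amy2a5 were at 0 counts in all libraries and Cpa1 had 1 count in control replicate 1 alone. The clock genes Arntl and Per3 differed too, with log2 fold changes of 3.18 ± 0.29 (SE, edgeR adjusted p = 0.00579) and -3.18 ± 0.38 (edgeR adjusted p = 0.0201). The part of periportal share, cell composition and time of collection in the lower values of the 10 genes was not tested.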

How the data were processed

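Liver RNA with poly(A) tails was sequenced in 6 libraries, all from F1 males. The authors deposited raw counts, 1 whole number for each gene in each library, in a single table. Per the submitters' processing notes, the build was mm10 and the tools were HTSeq, STAR, DESeq2 and StringTie, whose versions and roles are not stated. Annotation, strand setting and duplicate removal are not stated either. Of 53715 Ensembl identifiers, 53620 matched GENCODE M21, the source of symbols, positions and transcript lengths. Library totals ran from 2279755 to 2730160 counts.

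The main test was that of edgeR 4.0.16 (R 4.3.3) with filterByExpr (minimum count 10, minimum total 15), TMM factors, quasi-likelihood F tests of FR F1 against control F1, two-sided, with Benjamini-Hochberg adjustment over 13022 genes. The SE is the absolute log2 fold change over the square root of F. Log2 CPM used a prior count of 2. DESeq2 1.42.0, limma-voom (limma 3.58.1), other scalings and filters, left-out libraries, a replicate block and corrections for a ceiling were alternatives. Replicate pairs differed beyond counting noise, so none was treated as a duplicate.

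Members and gene lists were chosen with earlier results of these data known. Besides the 10 members, named genes were those past the threshold in each pathway list, the 2 of smallest p per list, 2 clock genes, and the 3 of nearest profile to Sds, Pck1 and G6pc, of which 1 is not reported here. Marker genes past the threshold, genes overlapping Sds, and Pck2, Sdsl and Got1 were named after their values were seen, as were regulators other than Klf15 and Nr0b2. Promoter sequences are from RefSeq (GRCm38.p6).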

Additional observations from a re-analysis of the deposited data

How the results depend on the processing

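The number of changed genes was 109, and 457 with DESeq2, 1199 with limma-voom and sample weights, 1251 without a filter on low counts, 21 with the replicate block, 322 at an adjusted p under 0.1 and 12 under 0.01. It ranged from 7 (without FR replicate 1) to 651 (without control replicate 1) when single libraries were left out. Of the 10 members 0 passed, against 3 with DESeq2, 3 with sample weights, 4 without a filter, 1 with counts expanded toward a ceiling and 3 at an adjusted p under 0.1, and from 0 to 1 with a library left out. The 9 negative members kept their sign in every alternative that gave a value. G6pc reversed to -0.023 with limma-voom, -0.0075 without a filter and -0.027 with the replicate block, and ran from -0.24 to 0.13 over left-out libraries. The entry-minus-final difference of -0.31 was -0.47 with expanded counts, -0.16 with 4 members near the ceiling left out and -0.16 without Sds, and ran from -0.39 to -0.25 over left-out libraries. The count of 7 members wholly lower in FR F1 was 6 with expanded counts. Deviations of same-numbered libraries correlated at -0.017, 0.108 and 0.153. Differently numbered libraries were not compared, so these values cannot decide whether the numbers pair the samples. The main fit used no pairing, and with the replicate block 0 members passed. The cause of these shifts was not tested.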

Other observations

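Parallel enzymes of the pathway were read beside the 10 genes, chosen after their values were seen. Pck2, the mitochondrial phosphoenolpyruvate carboxykinase gene, was scarce next to Pck1. Per length it made up 0.345% ± 0.107 of the Pck1 and Pck2 counts in control F1 and 0.769% ± 0.126 in FR F1 livers (SD, n = 3 per group). Its log2 fold change was 0.60 ± 0.32 (SE, edgeR adjusted p = 0.347). Sdsl, a gene related to Sds, had 26.2, 23.2 and 32.4 CPM in FR F1 livers, below all control F1 libraries, with a log2 fold change of -0.74 ± 0.26 (SE, edgeR adjusted p = 0.210). Got1, the cytosolic aspartate aminotransferase gene, was high in control replicate 1 alone, and its log2 fold change was -0.28 ± 0.32 (SE, edgeR adjusted p = 0.651).

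The ratio of Pck1 to G6pc CPM was 3.53, 3.58 and 3.54 in control replicates 1, 2 and 3, the tightest of the 3 ratios computed. In FR replicates 1, 2 and 3 it was 1.6, 2.91 and 3.23, below all control F1 libraries. The ratio of Sds to G6pc was 1.54 to 2.13 in control F1 and 0.663 to 1.19 in FR F1 libraries. These ratios were computed after the values were seen and were not tested.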
